A study of Mus musculus with 30 samples.

Results

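Gene expression at 9 months of age was compared with expression at 6 and 12 months in bone marrow of mice with 3 Tet2 genotypes. The 6 RNA sequencing libraries of 9-month-old mice, out of 24 RNA libraries and 30 samples in the series, were set against the 12 libraries of 6- and 12-month-old mice, each matched by sorted fraction and genotype. The genotypes were wild type (WT), a mutant whose Tet2 protein lacks catalytic activity (Mut) and a Tet2 knockout (KO), all on a mixed 129 and C57BL/6 background. The fractions were labelled LSK (lineage-negative, Sca1-positive, cKit-positive cells, which hold the stem cells) and Lin-negative (marrow depleted of cells with mature lineage markers). Each library was made from the pooled marrow of 3 mice, and every combination of fraction, genotype and age has 1 library. The 6 libraries of 3-month-old mice are given for reference only, and the 6 bisulfite libraries are not analysed here.

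Tet2 is a dioxygenase that oxidises 5-methylcytosine in DNA, and its loss in blood stem cells is known for a slow expansion of the mutant clone and a bias towards myeloid cells. Total RNA of a cell holds cytoplasmic messenger RNA together with RNA that stays in the nucleus, such as Malat1 and many unspliced or long non-coding transcripts, and RNA made inside mitochondria. The secretory pathway folds proteins with chaperones of the endoplasmic reticulum, whose genes share a promoter element read by the factors of the unfolded protein response.

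The labels were checked first. The Tet2 value at 9 months was 2951 and 3098 in the WT libraries (LSK and Lin-negative), 3409 and 3326 in Mut and 2354 and 2611 in KO. The KO libraries were lowest at 9 months, but Tet2 reads were not absent from them, and a value for the gene as a whole does not check its deleted part. At 6 and 12 months Tet2 ranged from 1013 to 2335 with a median of 1558, so the 9-month libraries lay above all 12 of them. Tet2 rose by 0.84 ± 0.12 on the log2 scale at 9 months (limma adjusted p = 0.00107), whereas Tet1 (0.04, adjusted p = 0.844) and Tet3 (0.10, adjusted p = 0.486) missed the threshold. All values are read counts divided by the authors' size factor of the library, and log2 differences are of value + 1, with standard errors.

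At 9 months the libraries labelled LSK and Lin-negative were nearly alike. Over genes, the standard deviation of the log2 difference between fractions was 0.218 for WT, 0.17 for Mut and 0.179 for KO at 9 months. Within a single fraction and genotype, libraries of 9 and 6 months differed by 0.506 to 0.686. Those of 9 and 12 months differed by 0.482 to 0.631, a range that overlaps the one between 6 and 12 months. At 6 and 12 months the fractions differed by 0.172 to 0.183 in 4 pairs, by 0.358 in KO at 6 months and by 0.347 in Mut at 12 months, where libraries of 6 and 12 months differed by 0.412 to 0.581. Kit, the receptor used in the LSK sort, was higher in LSK in 10 of 12 pairs but by only 0.157 ± 0.153 on the log2 scale (SD). Ly6a, which encodes Sca1, was higher in LSK in 3 of 12 pairs. Late neutrophil granule genes took 5.95 to 8.14% of the reads of the 9-month libraries. The defining markers of the sort therefore do not tell the LSK libraries apart, and the main comparison used the mean of both fractions, 3 pools of 9 months against 6 pools of 6 and 12 months. The genotypes stand in for replicates, so p-values measure the spread between these pools and not between mice. In bulk RNA, fewer cells of a type and less RNA per cell cannot be told apart.

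Expression at 9 months stood apart from both neighbouring ages across much of the transcriptome. Of 16062 genes tested, 3653 (22.7%) were higher and 3526 (22%) lower at 9 months at a limma adjusted p below 0.05. Larger changes were mostly rises: 1379 genes rose at least 2-fold and 65 fell at least 2-fold. At 9 months 2313 genes (14.4%) lay above both other ages in all 6 combinations of fraction and genotype and 2603 (16.2%) lay below both, together 30.6% of genes. The same count gave 11.1% for the 6-month libraries and 10.5% for the 12-month libraries. By limma, 4171 genes (26%) differed at 6 months from the mean of 9 and 12 months and 3125 (19.5%) at 12 months from the mean of 6 and 9 months. These contrasts share all their libraries. Without the KO pool of 9 months 4499 genes were called. No label gives the extraction or sequencing batch, so age and batch cannot be told apart.

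**Figure D1:**
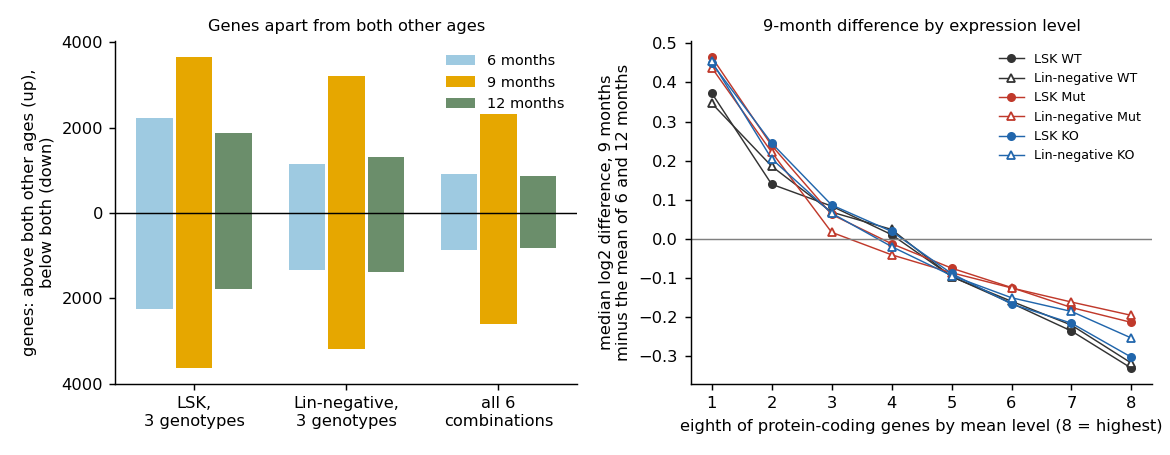
Number of genes above or below both other ages, for each age, in the 3 genotypes of LSK, in those of Lin-negative and in all combinations. Beside it is the median log2 difference of 9 months from 6 and 12 months for protein-coding genes in eighths of expression level. In all combinations 30.6% of genes lie outside the other ages at 9 months. The median difference of coding genes runs from 0.43 in the lowest eighth to -0.27 in the highest.

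The direction of change followed expression level. Among protein-coding genes the median log2 difference was 0.43 in the lowest eighth of expression, where 19.4% of genes rose and 2.03% fell, and -0.27 in the highest eighth, where 8.93% rose and 53.2% fell. A list of highly expressed genes therefore has to be read against these shares. More genes were detected as well, although the 9-month libraries held 31455530 to 38130498 reads and the flanking ones 35077767 to 47713130. Between 15540 and 15710 genes had a value of at least 10 in the 9-month libraries, against 14640 to 15310 at 6 and 12 months and 14990 to 15320 at 3 months.

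Of the 1379 genes that rose at least 2-fold, 331 were protein-coding, 220 were long non-coding RNA genes and 625 (45.3%) were predicted Gm and Rik loci absent from RefSeq. Of 858 long non-coding RNA genes, 398 rose and 7 fell, with a median log2 difference of 0.66 beside 0.04 over all genes. Of 63 small nucleolar and Cajal body RNA genes 47 rose and 0 fell, with a median of 1.18. The Gm and Rik loci gave 745 rises and 14 falls among 1216, whereas protein-coding genes gave 2200 rises and 3474 falls among 12979. At matched expression (mean log2 value from 5 to 6), 54.7% of long non-coding RNA genes and 24.6% of coding genes rose. Long non-coding RNA genes that lie inside a coding gene rose in 87 of 155 cases (56.1%). Those overlapping one rose in 158 of 306 (51.6%) and those apart from coding genes in 153 of 397 (38.5%). These groups were not matched for expression level. Quantile normalization left 174 rises of long non-coding RNA genes, 16 of small nucleolar RNA genes and 353 of Gm and Rik loci. Scaling to the protein-coding total gave 3632 rises and 1816 falls of coding genes.

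As a share of reads, long non-coding RNA made up 0.663 to 0.765% of the 9-month libraries and 0.343 to 0.485% of the 6- and 12-month libraries. The means were 0.724 ± 0.0382% (SD, n = 3 pools) and 0.424 ± 0.0412% (n = 6), and the ranges did not overlap (two-sided exact permutation p = 0.0238, the smallest that 3 against 6 pools allow; 0.0544 after Benjamini-Hochberg adjustment over 32 measures). The 3-month libraries, at 0.419 to 0.493%, lay with the 6- and 12-month ones. Messenger RNA of the mitochondrial genome made up 1.90 ± 0.162% of reads at 9 months and 0.964 ± 0.114% at 6 and 12 months, with the same exact permutation p and no overlap. The protein-coding share was 96.0 ± 0.472% against 97.6 ± 0.139%.

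**Figure D2:**
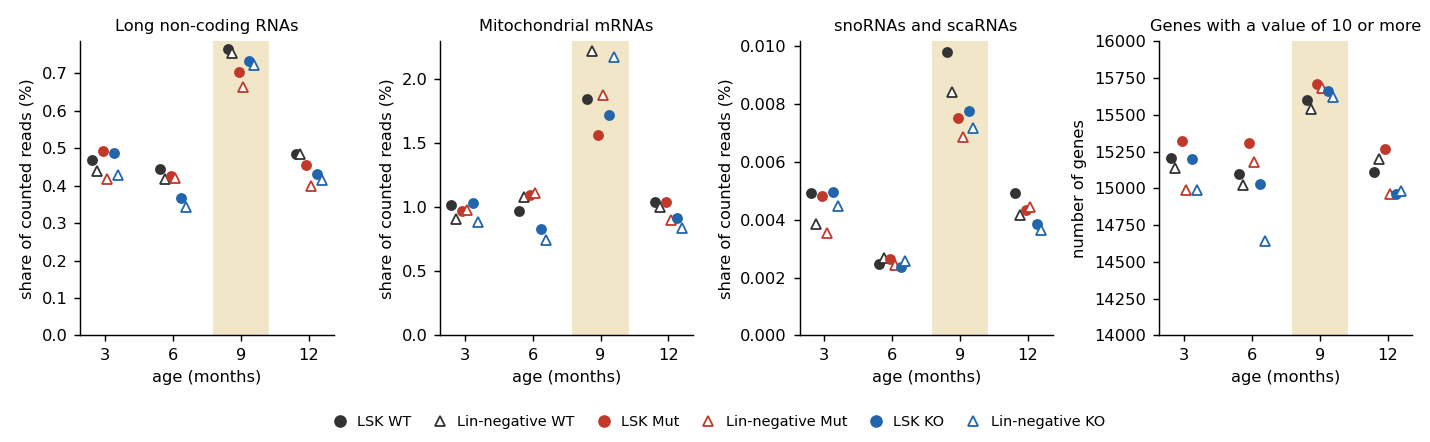
Shares of reads in RNA classes and the number of genes with a value of at least 10, 1 point per library against age in months. The 6 libraries of 9 months hold 0.663 to 0.765% long non-coding RNA, above all libraries of the other ages.

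In the list named nuclear non-coding RNA, 6 of 8 measured members rose (75%) and 0 fell, beside rises of 46.4% of all long non-coding RNA genes. The list also holds hosts of small nucleolar RNAs, so its count is not one of RNAs that stay in the nucleus. Malat1, a very abundant RNA of nuclear speckles, had values of 35445, 46674 and 41317 in the WT, Mut and KO libraries labelled LSK and 35737, 39475 and 38339 in the Lin-negative ones. At 6 and 12 months it ranged from 7248 to 26414 with a median of 15619, below every 9-month library. Malat1 rose 2.77-fold (1.47 ± 0.16 log2, limma adjusted p = 0.000349). Kcnq1ot1, the imprinted antisense RNA that silences its neighbours in cis, ranged from 406.3 to 679 (median 487.2) at 9 months and from 73.5 to 277.3 (median 117.7) at the flanking ages, a 3.56-fold rise (limma adjusted p = 0.000582). Snhg1 (log2 difference 1.04) and Gas5 (0.85), both hosts of small nucleolar RNAs, and Neat1 (0.82), the scaffold of paraspeckles, also rose. Neat1 was as high at 3 months (7583 to 15154) as at 9 months (6590 to 13289), unlike Malat1, whose 3-month values were 9006 to 14896.

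All 13 measured messenger RNAs of the mitochondrial genome rose, with a median of 0.81, and 12 of them lay above both other ages in all 6 combinations. The value of mt-Nd1, a subunit of complex I, was 78182, 66234 and 74220 in WT, Mut and KO of the LSK libraries and 93461, 82795 and 97050 in the Lin-negative ones, against 39575 to 52477 at 6 and 12 months. The groups did not overlap, and mt-Nd1 rose 1.75-fold (0.81 ± 0.10 log2, limma adjusted p = 0.000542). mt-Cytb, of complex III, rose by 0.84. Nuclear genes of oxidative phosphorylation were split, with 15 of 68 higher (22.1%) and 14 lower (20.6%). These shares are near those of all genes tested (22.7% higher and 22% lower). In LSK 32 rose and 13 fell and in Lin-negative 5 rose and 11 fell. The difference between the fractions was not tested for the list. Sdha, the catalytic subunit of complex II, ranged from 5409 to 6018 at 9 months and from 9972 to 11433 at the flanking ages (log2 difference -0.90, limma adjusted p = 0.000147). Ndufa4 rose by 0.61 and Atp5b, the catalytic subunit of the ATP synthase, fell by 0.62. Without the WT pool of 9 months the counts were 5 rises and 16 falls, and scaling to the protein-coding total gave 36 and 8.

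Cytosolic ribosomal protein genes and the genes that build ribosomes moved apart. Of 76 ribosomal protein genes 33 rose (43.4%) and 5 fell (6.58%), with a median of 0.29. Of the 76, 74 lie in the highest expression eighth, where 8.93% of coding genes rose and 53.2% fell. The rises were led by Rps12 (50923 to 77582 at 9 months, median 65165, against 32489 to 53570, median 38136). Its log2 difference was 0.73 ± 0.13 (limma adjusted p = 0.00261). Rps24 and Rps25 rose by 0.67 and 0.65, whereas Rpl4 fell by 0.58. Without the WT pool of 9 months 12 ribosomal protein genes rose and 6 fell. In the ribosome biogenesis list 16 of 20 genes fell and 1 rose, with a median of -0.55. Ncl, which encodes nucleolin, a nucleolar protein that binds ribosomal RNA precursors, had values of 18077, 12624 and 13799 in WT, Mut and KO labelled LSK and 17162, 11724 and 12900 in Lin-negative, against 26782 to 38197 at 6 and 12 months. Ncl fell to 0.447 of the flanking level (-1.16 ± 0.08 log2, limma adjusted p = 0.000147), and no 9-month library reached the lowest flanking one. Nolc1, another nucleolar phosphoprotein, and Ddx21, an RNA helicase of the nucleolus, each fell by 0.98, and Rrs1, an assembly factor of the large subunit, by 0.91. Of the 20 genes, 8 belong to the highest expression eighth, where 53.2% of coding genes fell. Leaving out the 12-month libraries gave 10 falls and 2 rises.

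Chaperones of the endoplasmic reticulum fell together at 9 months. In the unfolded protein response list 12 of 14 genes fell and 0 rose, with a median of -0.56, and 10 of them lay below both other ages in all 6 combinations. Hsp90b1, the Hsp90 of the endoplasmic reticulum, had values of 13904, 13285 and 14631 in WT, Mut and KO labelled LSK and 13410, 12427 and 13618 in Lin-negative. At 6 and 12 months it ranged from 20931 to 25731 (median 23015), and the groups did not overlap (-0.77 ± 0.07 log2, limma adjusted p = 0.000197). Hyou1, a large Hsp70 relative, fell by 0.92, the disulfide isomerase Pdia6 by 0.84 and Creld2 by 0.81. Hspa5, the main Hsp70 of this compartment, fell by 0.37, from a median of 27542 to 20812. Of the 14 genes, 7 are in the highest expression eighth and 5 in the next, where 45.9% of coding genes fell. Scaling to the protein-coding total, which moves the median of all genes to 0.21, left 9 falls and 0 rises.

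The 250 bases before the annotated start were searched on both strands for the endoplasmic reticulum stress response element, CCAAT and CCACG with 9 bases of any kind between them. It was found in 6 of the 12 promoters of this list with a RefSeq entry (Hspa5, Hsp90b1, Dnajc3, Creld2, Pdia6 and Calr, all lower at 9 months) and in 33 of 27025 promoters (0.122%). The stretches around a single match are shown for 3 of these genes as examples of the element in promoters of genes that fell, with the match in capitals, from RefSeq on GRCm38.p6: Hspa5 at chr2:34771985-34772083, Creld2 at chr15:88819480-88819578 and Pdia6 at chr12:17266451-17266549, all on the plus strand.
Hspa5: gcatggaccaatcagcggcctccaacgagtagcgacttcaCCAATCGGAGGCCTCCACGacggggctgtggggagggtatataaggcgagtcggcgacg
Creld2: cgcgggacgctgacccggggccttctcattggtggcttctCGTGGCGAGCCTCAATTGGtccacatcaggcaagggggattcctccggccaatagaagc
Pdia6: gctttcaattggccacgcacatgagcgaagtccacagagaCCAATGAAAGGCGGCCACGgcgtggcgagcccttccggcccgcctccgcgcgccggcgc
The Creld2 match is on the opposite strand. The other 6 promoters of the list had no match in this window. Over all 19 tested genes with a match 8 fell, 6 of them from this list, and 2 rose; their median log2 difference was 0.15, against -0.01 for genes without a match.

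Cytosolic chaperones were split. In the heat shock list 12 of 19 genes fell (63.2%) and 3 rose, with a median of -0.60. Of the 19, 9 are in the highest expression eighth and 5 in the next, where 53.2% and 45.9% of coding genes fell. Hsph1, an Hsp110 nucleotide exchange factor, had values of 1799, 1382 and 1385 in WT, Mut and KO labelled LSK and 1795, 1272 and 1126 in Lin-negative, against 2654 to 4019 at 6 and 12 months (-1.20 ± 0.09 log2, limma adjusted p = 0.000147). Fkbp4, a co-chaperone of Hsp90, fell by 0.98 and Hsp90aa1, the inducible cytosolic Hsp90, by 0.81. The stress-inducible Hsp70 genes went the other way. Hspa1a ranged from 5680 to 9008 at 9 months and from 849.8 to 6797 at the flanking ages (log2 difference 1.21, limma adjusted p = 0.021), and Hspa1b from 11554 to 17671 against 1794 to 12889 (1.34, adjusted p = 0.00648). Hspa1a and Hspa1b are near-identical copies, so the reads of each are uncertain.

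The mitochondrial chaperonin pair also split. Hspd1 (Hsp60) ranged from 5223 to 9260 at 9 months and from 11015 to 16349 at the flanking ages, without overlap (-0.99 ± 0.09 log2, limma adjusted p = 0.000201). Hspe1 (Hsp10), its partner in the folding chamber and its neighbour on the chromosome, rose by 0.43 ± 0.09 (limma adjusted p = 0.00578), with overlapping values of 4140 to 6922 and 3201 to 5132. The annotated spans of Hspd1 (chromosome 1, 55077833 to 55088243, GRCm38.p6) and Hspe1 (55088148 to 55091317) overlap, so reads from the overlap are uncertain between them. The promoter of Hspe1 was the only 1 of 15 in the list with a match to the heat shock element. This element (GAA, TTC and GAA, each 2 bases apart) was found in 0.4% of all promoters. The stretch searched for Hspe1 lies within the annotated span of Hspd1. Over all 35 tested genes with a match 11 fell and 10 rose, with a median log2 difference of 0.03.

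**Figure D3:**
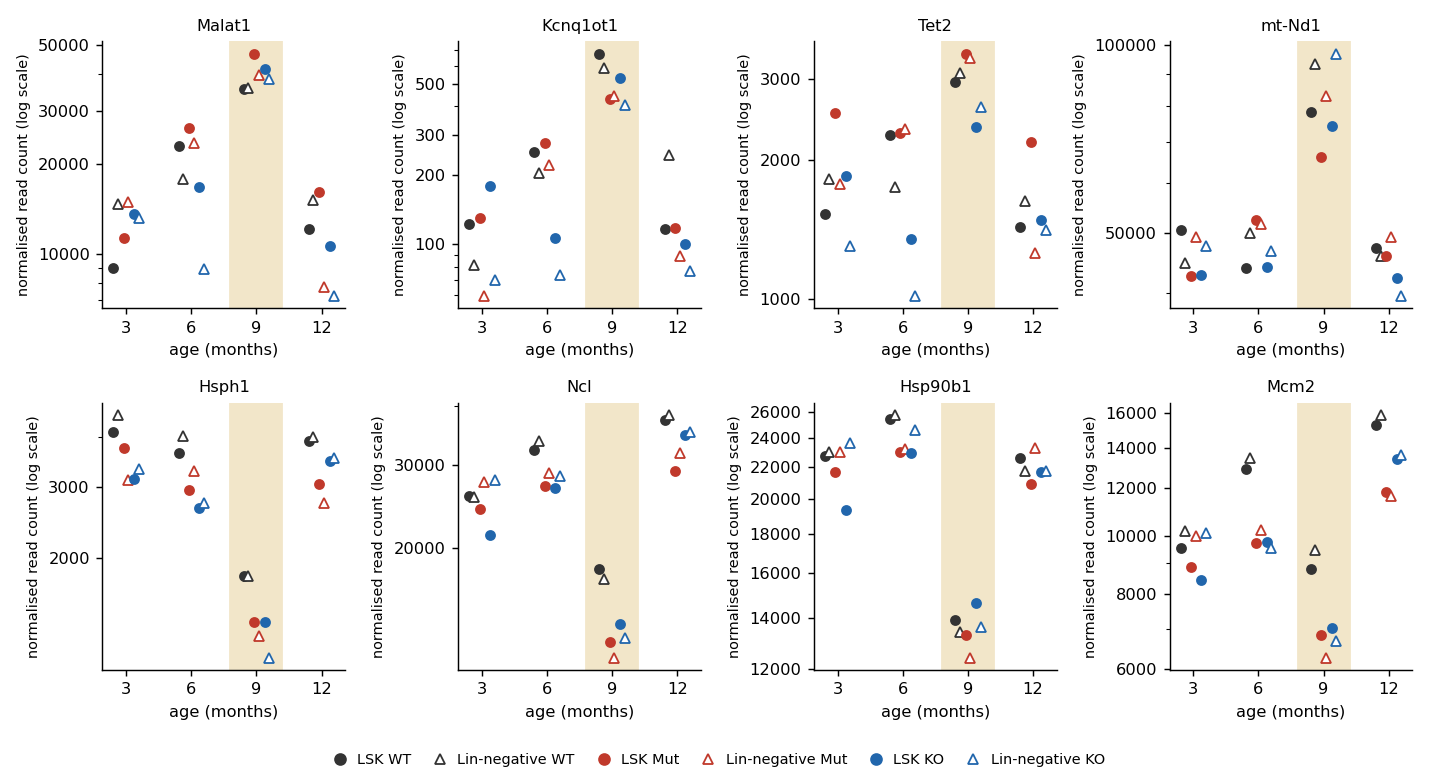
Values of single genes in every library against age in months, coloured by genotype, with separate marks for the fractions. At 9 months Malat1 lies between 35445 and 46674, above all libraries of other ages, and Hsph1 between 1126 and 1799, below all of them.

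Metabolic genes fell as well. In the glycolysis and hypoxia list 14 of 22 genes fell (63.6%) and 1 rose (median -0.43). Of the 22, 11 lie in the highest expression eighth and 4 in the next, where 53.2% and 45.9% of coding genes fell. In the cholesterol synthesis list 14 of 24 fell and 0 rose (median -0.40). Pfkl, the liver-type phosphofructokinase, ranged from 1899 to 2594 at 9 months and from 3365 to 4225 at 6 and 12 months (-0.80 ± 0.08 log2, limma adjusted p = 0.000218). Tpi1 fell by 0.65 and Eno1 by 0.61, both enzymes of glycolysis. Sqle, the squalene epoxidase, ranged from 524.2 to 834.4 at 9 months and from 923.6 to 1386 at the flanking ages, without overlap (-0.74 ± 0.12 log2, limma adjusted p = 0.00208). Srebf2, the transcription factor of the pathway, fell by 0.65. The cholesterol genes are mostly of low or middle level, with 1 in the highest expression eighth. Without the KO pool of 9 months 8 of them fell.

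Of 21 DNA replication genes 10 fell (47.6%) and 2 rose, and of 18 mitosis genes 10 fell (55.6%) and 1 rose. These shares are near those of coding genes of the same level: 10 and 6 of the replication genes and 9 and 8 of the mitosis genes lie in the highest and the next expression eighth, where 53.2% and 45.9% fell. Mcm2, a subunit of the replicative helicase, ranged from 6275 to 9479 at 9 months and from 9531 to 15867 at the flanking ages (-0.70 ± 0.07 log2, limma adjusted p = 0.00026). Plk1, a mitotic kinase, fell by 0.78, whereas Cenpa, the centromeric histone H3, rose by 0.49. Quantile normalization and scaling to the protein-coding total each gave 4 rises and 4 falls of mitosis genes, with the list's median still below 0. Of 23 replication-dependent histone genes 10 rose and 0 fell, led by H2ac6 (286.6 to 418 at 9 months against 100.6 to 204.6; log2 difference 1.31, limma adjusted p = 0.000788). In LSK 19 histone genes rose and in Lin-negative 2, and without the WT pool of 9 months 3 rose; the difference between the fractions was not tested for the list.

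Lineage markers changed in a mixed way. Among erythroid genes 8 of 26 rose (30.8%) and 4 fell (15.4%), beside 22.7% and 22% of all genes tested. The list's median log2 difference was 0.02, against 0.04 over all genes. The adult beta-globin Hbb-bs ranged from 5000 to 10146 at 9 months and from 1876 to 5383 at 6 and 12 months. Its log2 difference was 0.95 (limma adjusted p = 0.00195), and Slc25a37, the mitochondrial iron importer, rose by 0.73. Zfpm1, a cofactor of Gata1, fell by 0.56. Without the WT pool of 9 months 3 erythroid genes rose and 5 fell, without the 6-month libraries 5 rose and 8 fell, and without the 12-month libraries 10 rose and 1 fell. Among the 27 genes of T and NK cells, 13 rose (48.1%) and 0 fell. The rises included Klrd1, an NK receptor chain (403.7 to 542.1 against 214.7 to 390.8, limma adjusted p = 0.00386). However, 2 genes of the list rose and 1 fell without the KO pool of 9 months. Leaving out the 12-month libraries gave 3 rises and 2 falls. This list made up 0.0587 ± 0.0159% of reads at 9 months and 0.0471 ± 0.0183% at 6 and 12 months (exact permutation p = 0.31).

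Of 14 primary granule genes 5 fell (35.7%) and 3 rose (21.4%). Of these 14, 12 lie in the highest expression eighth, where 53.2% of coding genes fell and 8.93% rose. Of 22 monocyte and macrophage genes 7 fell (31.8%) and 1 rose (4.55%), beside 22% and 22.7% of all genes tested. Quantile normalization and scaling to the protein-coding total each turned the primary granule counts to 3 falls and 6 rises, and without the 6-month libraries 6 monocyte genes fell and 6 rose. Mpo, the myeloperoxidase of primary granules, ranged from 74706 to 124264 at 9 months and from 150752 to 255085 at the flanking ages, without overlap (-0.90 ± 0.14 log2, limma adjusted p = 0.00135). Cebpa, the granulocyte transcription factor, fell by 0.57 and Csf1r, the monocyte growth factor receptor, by 0.49. Ltf (lactoferrin) fell by 0.61, from 155810 to 241961 at 9 months against 192060 to 514423, and the groups overlapped. Of 19 late granule genes 5 fell (26.3%) and 0 rose. All 19 lie in the highest expression eighth, so this share of falls is below that of coding genes of their level (53.2%). Without the 6-month libraries 11 rose and 0 fell, and without the 12-month libraries 8 fell and 0 rose. The direction of this list therefore rests on which neighbour is used. The list took 7.11 ± 1.01% of reads at 9 months and 6.93 ± 2.09% at 6 and 12 months (exact permutation p = 0.738). Of 17 megakaryocyte genes 8 fell (47.1%) and 1 rose (5.88%), with 2 falls left without the 12-month libraries. Itgb3, an integrin of platelets, fell by 0.62. Kit fell by 0.42 (limma adjusted p = 0.00775), and Ly6a gave 0.50 (adjusted p = 0.102).

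**Figure D4:**
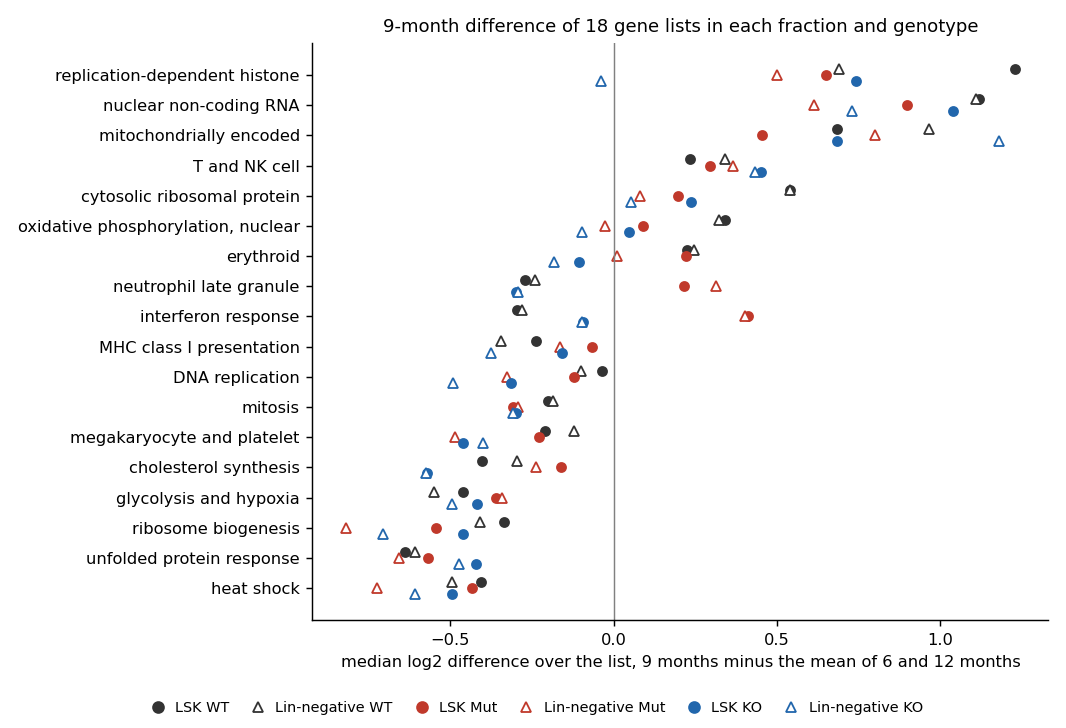
Median log2 difference of 9 months from the mean of 6 and 12 months for a selection of the gene lists, with a point for every fraction and genotype. The unfolded protein response list lies between -0.66 and -0.42 and the mitochondrially encoded list between 0.46 and 1.18 in all combinations.

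Among other regulators, Ogt, the enzyme that adds GlcNAc to proteins and binds TET proteins, ranged from 13118 to 17845 at 9 months and from 5395 to 8755 at the flanking ages (1.05 ± 0.10 log2, limma adjusted p = 0.000216); at 3 months it was 8798 to 15222. Of 12 genes of TET and DNA methylation 3 rose (25%) and 6 fell (50%), beside 22.7% and 22% of all genes tested. Dnmt1, the maintenance DNA methyltransferase, and its partner Uhrf1 fell by 0.59 and 0.55. Fosb, an immediate early transcription factor, ranged from 4622 to 9471 at 9 months and from 721.9 to 3511 at the flanking ages. Its log2 difference was 1.83 (limma adjusted p = 0.0028). However, only 3 of 28 immediate early genes rose (10.7%) and 1 fell (3.57%). The counts were 14 and 2 without the 6-month libraries and 3 and 3 without the 12-month libraries. In the latter case the list's median turned from 0.15 to -0.17. Of 19 clock genes 7 rose (36.8%) and 2 fell (10.5%), but 2 rose and 1 fell without the KO pool of 9 months. Per3 rose by 0.78 and Cry1, a repressor of the clock, fell by 0.60. Both cold-inducible RNA-binding genes, Cirbp and Rbm3, rose by 0.50. Of 38 interferon response genes 2 rose (5.26%) and 3 fell (7.89%). Among the strongest changes outside the lists were the predicted gene Gm50035 (2.09), C030034L19Rik (1.96), Prss50 (-1.26), the dynein regulator Nudc (-1.18) and Snd1, a component of RNA-induced silencing complexes (-1.13).

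In the MHC class I presentation list 5 of 12 genes fell (41.7%) and 0 rose. Of the 12, 8 lie in the highest expression eighth and 3 in the next, so this share is not above that of coding genes of their level (53.2% and 45.9%). Erap1, an aminopeptidase that trims peptides, ranged from 2365 to 2860 at 9 months and from 3143 to 4462 at 6 and 12 months, without overlap (-0.56 ± 0.09 log2, limma adjusted p = 0.00181). Tapbp (tapasin) fell by 0.54 and Tap2, a peptide transporter subunit, by 0.48. Of 13 integrated stress response genes 5 fell (38.5%) and 1 rose (7.69%), beside 22% and 22.7% of all genes tested. The transcription factor Atf5 fell by 0.68 (290.7 to 438.1 at 9 months against 508.5 to 662.9). Shmt2 and Mthfd2, enzymes of mitochondrial one-carbon metabolism, fell by 0.58 and 0.53. Of 22 inflammatory genes 5 rose (22.7%), the same share as over all genes tested, and 2 fell (9.09%). Nfkb1, a subunit of NF-kappaB, ranged from 5339 to 7227 against 8254 to 10599 (-0.59 ± 0.07 log2, limma adjusted p = 0.00037), whereas Tnf rose by 0.78 and the receptor adaptor Traf1 by 0.69. The direction of the inflammatory list rests on which neighbour is used: without the 6-month libraries 15 genes rose and 1 fell, and without the 12-month libraries 3 rose and 3 fell.

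Further lists are given here beside the shares over all genes tested, 22.7% higher and 22% lower. Of 9 heme synthesis genes 3 rose, led by Ppox (4011 to 5368 at 9 months against 2092 to 3863), and 2 fell. Fkbp5, a glucocorticoid-induced co-chaperone, ranged from 2421 to 2916 at 9 months and from 4134 to 5548 at the flanking ages (-0.87 ± 0.07 log2, limma adjusted p = 0.000155), whereas Ddit4, another glucocorticoid target, rose by 0.53. That list of 14 held 3 rises and 3 falls. Of 19 p53 targets 3 rose and 4 fell. Of 18 genes of aged stem cells 6 fell and 0 rose, but without the 12-month libraries 1 fell and 2 rose. The stem cell list held 3 falls and 0 rises among 19, with Cd34 lower by 0.61. Of 18 B lymphoid genes 1 passed the test, but the list lay between its neighbours: 8 rose and 0 fell without the 6-month libraries (median 0.92), and 0 rose and 10 fell without the 12-month libraries (median -1.33). Of 13 plasma cell genes 3 rose and 2 fell. Of 13 stromal and endothelial genes 1 fell and 0 rose.

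The fractions were also fitted apart. In LSK 3389 of 16005 genes (21.2%) rose and 3820 (23.9%) fell, and in Lin-negative 2047 of 15999 (12.8%) rose and 2384 (14.9%) fell. The difference of the 9-month change between fractions reached the threshold for 0 of 16062 genes (0%) by limma, with 794 at an unadjusted p below 0.05. One 9-month library stood apart for a few genes: the WT library labelled LSK held 69960 for Lars2 (a mitochondrial leucyl-tRNA synthetase) where the other 9-month libraries held 2571 to 11294, and 2318 for Mir6236 where the others held 43.71 to 478.7. Lars2 gave a log2 difference of 0.41 in LSK and -1.62 in Lin-negative, and without that library the LSK value was -0.87.

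Between genotypes the 9-month change differed for 1 of 16005 genes in LSK (0.00625%) and 0 of 15999 in Lin-negative (0%) by limma's F test, with 152 and 96 genes at an unadjusted p below 0.05. edgeR called 2 and 0. The gene in LSK was Rps7-ps3, a processed pseudogene of a ribosomal protein, whose log2 difference at 9 months was 3.24 for WT, 0.48 for Mut and -4.54 for KO (adjusted p = 0.0355). Its value in WT labelled LSK was 1297 at 9 months and 132.9 and 139.1 at 6 and 12 months, and in KO 176.4 at 9 months and 4906 and 3472 at the flanking ages. Its reads cannot be separated with certainty from those of near-identical copies. The Y-linked genes, which give a measure of the share of male mice in a pool, gave indices that overlapped between ages: 0.322 for WT, 0.881 for Mut and 0.378 for KO at 9 months, 0.54 ± 0.333 (SD, n = 3) at 6 months and 0.248 ± 0.248 at 12 months.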

How the data were processed

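The deposited table holds read counts per gene that the authors divided by 1 size factor per library (unit signal); 100.0% of values came out as whole reads within 0.000001 reads once the factor was undone. Per the submitters' processing notes the tools were Trim Galore 0.6.5, STAR 2.7.3a, featureCounts, edgeR and Bismark 0.22.3, with genome build mm10. The table lists 16070 genes and 0 columns of other samples. Genes reaching a value of 10 in 3 or more fitted libraries were tested in R 4.3.3 with limma 3.58.1 on log2(value + 1), with genotype as block and age as factor (9 months against the mean of 6 and 12 months), at a Benjamini-Hochberg adjusted p below 0.05. edgeR 4.0.16 and DESeq2 1.42.0 on the recovered reads, other scalings, left-out libraries and other filters were alternatives. The script was tested on simulated data. Gene classes, promoters and positions came from RefSeq, which matched 14763 genes (91.9%). Genes were named by a rule: the strongest consistent changes of each comparison, up to 4 members of each of 38 lists, and Tet, sort and sex-linked genes; of 146 genes followed in all settings 11 fell outside it and were chosen after their values were seen (among them Hspe1, Hspa5, Hspa1a, Hspa1b and Hsp90aa1). The members and lists were chosen with earlier results of these data known. The 9-month libraries held 31455530 to 38130498 reads. The bisulfite libraries were not analysed here.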

Additional observations from a re-analysis of the deposited data

Results flagged for a closer look

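The 9-month change of the pseudogene Rps7-ps3 in LSK differed between genotypes by limma's F test (adjusted p = 0.0355; edgeR adjusted p = 0.0174). The log2 difference was 3.24 for WT, 0.475 for Mut and -4.54 for KO, and in Lin-negative it was 3.71, 0.0778 and -5.09 (adjusted p = 0.214).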

How the results depend on the processing

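The count of 7179 genes called in the mean of both fractions kept within 1.5 times under every alternative run except one: 5835 with quantile normalization, 7158 with TMM, 7209 with scaling to the protein-coding total, 7335 with edgeR, 7559 with DESeq2, 7438 without the 6-month and 5365 without the 12-month libraries, and 4499 to 8186 when 1 pool was left out, the lowest without KO at 9 months. Those on other scalings, count tools and left-out ages were chosen after seeing the data. Scaling to the protein-coding total moved the share of rises among calls from 50.9% to 74.4% (5363 rises, 1846 falls) and the median of all genes from 0.0418 to 0.206. In LSK leaving out 1 library gave 5148 to 7024 calls. The Lin-negative count of 4431 was less stable: 2360 without the 12-month libraries, 2129 without the Mut libraries, 0 without the WT libraries (limma, 4227 at an unadjusted p below 0.05; no other tool was run on that subset), and 1148 to 6087 when 1 library was left out (1148 without KO, 1384 without Mut and 2179 without WT at 9 months, and 2601 without WT at 12 months). edgeR called 2 genes for the difference between genotypes in LSK against 1. Among 146 genes followed in the mean of both fractions, 2628 of 2774 values kept direction and side of the threshold, and 2 reversed: Gm23935 at 0.133 with edgeR and 0.132 with DESeq2. In LSK, leaving out 1 library gave -0.872 to 1.29 for Lars2 and -0.95 to 1.44 for Gm23935, both reversed without WT at 9 months, and -2.03 to 1.86 for Rps7-ps3, reversed without KO at 9 months and at 1.86 without all KO libraries. The cause was not tested. Genotype was the block of the age comparison, and 18 libraries with an estimated correlation within a genotype and age gave 7703 calls. By replicate number, no paired analysis was possible because each group holds 1 library. With 3 pools of 9 months the smallest exact p is 0.0238.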
